A study of Rattus norvegicus and Ovis aries with 113 samples.

Results

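MEST and 8 other imprinted genes (PEG3, IGF2, H19, DLK1, CDKN1C, GRB10, NDN and PLAGL1) were followed through brain, sperm and ovary of sheep and rats. The 9 genes were picked by symbol, out of 31304 entries in the sheep count table and 38675 in the rat table. The rat table held all 9, and the sheep table held 8, since no sheep entry carried the symbol H19. The choice rested on measured values: MEST stood at 23703 counts per 1000000 (CPM) on average in sheep brain and at 17.3 CPM in rat brain. Levels in sheep brain against rat brain are therefore given below as a description with no test, and so is MEST in sperm or ovary against brain.

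The study's title asks which genes link the nervous and the reproductive system in mammals. RNA was sequenced from 10 brain regions and sperm of 5 male sheep (Ovis aries), which made 55 libraries. It was also sequenced from whole brain and seminal fluid (the sperm libraries) of 15 male Sprague Dawley rats, an outbred laboratory strain, and from whole brain and ovary of 14 females, which made 58 libraries. All animals were described as past puberty, with no age in days and no treatment or genetic change given. Sheep RNA was extracted with TRIzol and rat RNA with a Zymo column kit, and different kits made the libraries (Kapa and Watchmaker), so species and preparation cannot be told apart. The sheep were numbered 687, 688, 690, 694 and 699, and values per sheep are listed in that order.

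Imprinted genes are expressed mainly or only from the copy inherited from 1 parent, and DNA methylation laid down in egg or sperm marks which copy is silent. Many of them act on growth before birth, on placenta and on metabolism, and a number stay active in the adult brain, where several are linked to feeding, body temperature and care of the young. MEST encodes a protein of the alpha/beta hydrolase family, PEG3 and PLAGL1 encode zinc-finger proteins, and NDN encodes necdin, a MAGE-family protein of the Prader-Willi region. DLK1 is a membrane protein related to Notch ligands and IGF2 is a growth factor, and these 6 are paternally expressed in most tissues. H19, a long noncoding RNA, and CDKN1C, an inhibitor of cyclin-dependent kinases, are expressed from the maternal copy. GRB10, an adaptor that restrains signalling from insulin and IGF receptors, is maternal in most tissues and paternal in neurons of the mouse. Gene counts sum both parental copies, so imprinting itself was not measured.

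The promoter windows of 2 rat genes are shown, for Mest because most results turn on it, and for Ndn because it followed MEST most closely among the members in sheep brain (below). Both come from RefSeq on GRCr8, run 5′ to 3′ on the plus strand, and cover the 250 bases before the annotated start of the gene. Capitals mark each CG dinucleotide, the site of DNA methylation in mammals. The Mest window is chr4:60321564-60321813 and the Ndn window is chr1:125260809-125261058.
Mest: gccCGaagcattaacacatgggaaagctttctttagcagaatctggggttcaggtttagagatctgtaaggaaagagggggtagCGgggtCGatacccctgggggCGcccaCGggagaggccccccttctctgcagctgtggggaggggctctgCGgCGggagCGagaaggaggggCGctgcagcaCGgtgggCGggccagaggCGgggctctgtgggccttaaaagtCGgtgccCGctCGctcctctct
Ndn: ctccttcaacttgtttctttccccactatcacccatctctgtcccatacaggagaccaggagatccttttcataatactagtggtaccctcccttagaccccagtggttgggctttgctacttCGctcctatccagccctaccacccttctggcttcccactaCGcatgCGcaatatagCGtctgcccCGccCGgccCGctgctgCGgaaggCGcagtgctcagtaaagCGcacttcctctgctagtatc
The Mest window held 15 CG dinucleotides at 64% G and C, and 25.8% of 33469 rat promoter windows held at least as many. The Ndn window held 10, at 55.2% G and C, and 35.9% of windows held at least as many. Among the 7 members with an entry, Dlk1 was richest with 41 CG dinucleotides (0.98% of windows held at least as many), followed by Grb10 with 38 and Plagl1 with 23. All 7 were at or above the median window, which held 5. The letters TATAAA were found on neither strand of the 7 windows, against 12.9% of all windows on either strand. H19 and Cdkn1c had no entry.

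On GRCr8 the rat members lay at 4:60321814-60332288 (Mest, plus strand), 1:76130965-76157774 (Peg3, plus), 1:207243873-207261263 (Igf2, minus), 1:207160175-207162851 (H19), 6:134192491-134199779 (Dlk1, plus), 1:208084801-208087680 (Cdkn1c), 14:90708653-90816399 (Grb10, minus), 1:125261059-125262658 (Ndn, plus) and 1:9297066-9337394 (Plagl1, plus). Mest overlapped no other annotated gene. H19 overlapped the uncharacterised entry LOC102548505, which held 245 counts in brain beside 697 for H19, and 193 in ovary beside 15614, and whether the counting used strand is not given in the sources used here. In sperm it held 101 counts beside 97 for H19. The levels of H19 in brain and in sperm are uncertain for that reason. Positions of the sheep genes are not given, for want of a sheep annotation.

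Library totals ranged from 46.7 to 72.4 M (1 M being 1000000 counts) in sheep brain, from 13.7 to 65.1 M in sheep sperm, and from 13.7 to 119 M in rat. Rat brain libraries 1 (female) and 4 (male) were rich in ribosomal RNA entries, with 86.9% of counts in library 1, against 2.39 to 54.0% in the other 27 rat brain libraries. Rat sperm libraries 16 and 17 stood apart by their few low counts. Neuron markers were high in all brain groups and late spermatid markers in sperm. Neutrophil markers, however, summed to between 13821 and 158833 CPM in the sheep sperm libraries, against 0.165 to 1.36 CPM in sheep brain. These sums use the scaling defined in the next sentence, which raises the sheep sperm values, so they are not shares of a library. Levels below are CPM scaled by the trimmed mean of M values (TMM), which corrects for a few entries taking up a library, unless plain CPM (of the library total) is named. Counts were not divided by gene length, so levels are compared between samples and not between genes.

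MEST took more counts in sheep brain than any other named nuclear gene, and in rat brain it took few. It averaged 23703 ± 8197 plain CPM (SD, n = 50) in sheep, with a lowest library of 6879, a median of 22287 and a highest of 45566. One entry thus took 2.37% of all counts on average, and between 0.688 and 4.56% per library, from 66945287 counts in all. It ranked 3 among the 31304 sheep entries. Above it stood only placeholder or mitochondrial entries, and the next named gene, MBP of myelin, averaged 6099 plain CPM. This is an order of counts taken, not corrected for gene length. In rat, Mest averaged 17.3 ± 6.35 plain CPM (SD, n = 29), with a range of 0.923 to 29.6, from 26559 counts, and ranked 8405 of 38675. Its lowest value was in library 1, rich in ribosomal RNA entries, and with TMM scaling the range was 8.31 to 24.2 CPM. The lowest sheep brain library was thus far above the highest rat brain library.

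**Figure D1:**
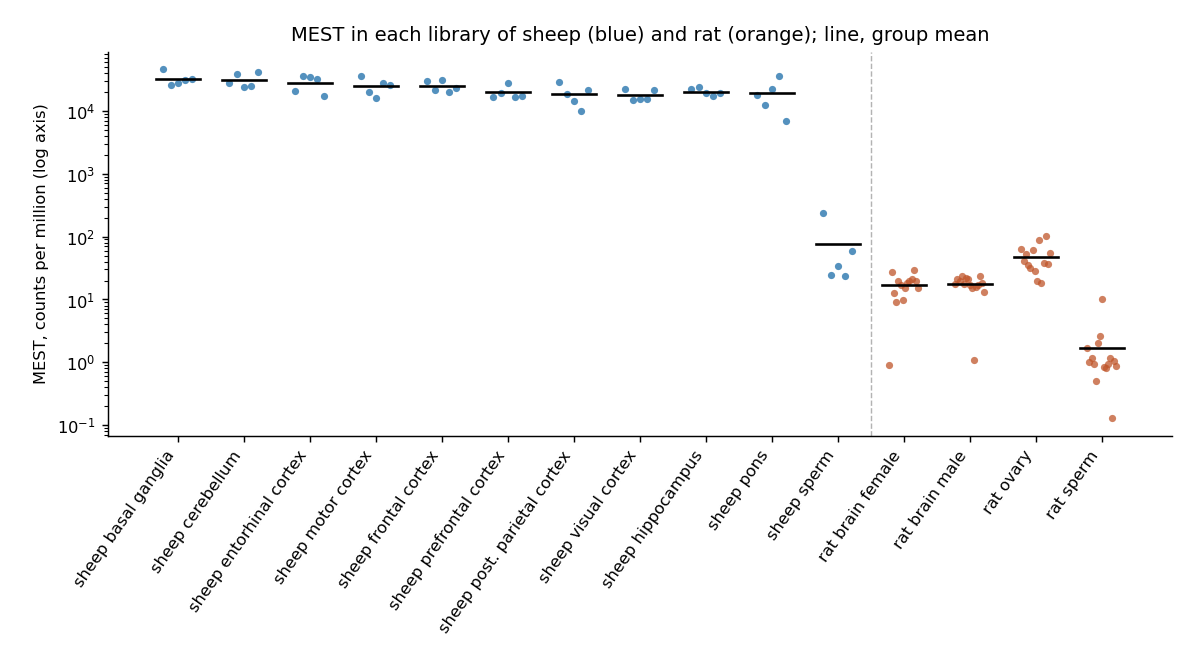
MEST in every library, in plain CPM on a log axis, for the 10 sheep brain regions, sheep sperm, female and male rat brain, rat ovary and rat sperm; each point is a library and each line a group mean. All 50 sheep brain libraries lie between 6879 and 45566 CPM, while the 29 rat brain libraries lie between 0.923 and 29.6 CPM. Without rat brain libraries 1 and 4, which are rich in ribosomal RNA entries, the rat range is 9.23 to 29.6 CPM.

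The ratio of mean plain CPM was 1372 (10.42 on the log2 scale), and it was 10.32 with TMM scaling and 10.72 on totals over shared symbols only. Among 12022 symbols found once in each table and at 1 CPM or more in brain, MEST had the highest ratio. LRRN4CL and SPACDR came next, at 6.82 and 6.36 on the log2 scale. The median of all 12022 was -0.28, with 5th and 95th percentiles of -1.98 and 1.71. With the regions of each sheep summed, MEST stood at 26787, 22878, 23268, 22246 and 22386 plain CPM, so no animal carried the high mean alone.

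Of the other 7 members in both tables, 6 averaged lower in sheep brain than in rat brain, and PLAGL1 averaged higher, as MEST did. PEG3 averaged 112 plain CPM in sheep brain against 397 in rat brain, a log2 ratio of -1.83. NDN averaged 40.5 against 193 (-2.25), GRB10 11.2 against 42.9 (-1.94) and IGF2 23.1 against 223 (-3.27). DLK1 averaged 0.343 against 12.4 plain CPM (-5.18), the widest gap in that direction among the members. CDKN1C, at 8.87 against 11.9 (-0.42), and PLAGL1, at 12.5 against 6.92 (0.85), lay well inside the 5th to 95th percentile range. Whole rat brains hold regions that were not dissected in sheep, such as the hypothalamus, so sampled tissue, species and preparation cannot be told apart for these genes.

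Genes beside Mest on rat chromosome 4 were read in the same way, to see whether the sheep level extended to them. COPG2, which encodes a coat protein of transport vesicles and lies on the opposite strand at 4:60333455-60468953, averaged 31.8 plain CPM in sheep brain and 74.2 in rat brain (-1.22). CEP41, a centrosome and cilium protein at 4:60238602-60279670, averaged 19.8 and 10.2 (0.96). TSGA13, KLF14 and CPA1 averaged under 0.25 plain CPM in both species. CPA5, a carboxypeptidase gene, averaged 1.28 in sheep and 0.0967 in rat (3.73), and its lowest sheep library (0.304) lay above its highest rat library (0.275). Its ratio thus lay in the direction of MEST and above the 95th percentile of the shared symbols. Those symbols were at 1 CPM or more, however, while CPA5 was near 1 plain CPM in sheep and far below that in rat. CPA4 was matched in the rat table only. None of these 6 sheep entries averaged above 31.8 plain CPM in sheep brain. Log2 ratios of 10 reference genes, among them ACTB and GAPDH, ran from -1.13 to 0.14 with a median of -0.62.

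**Figure D2:**
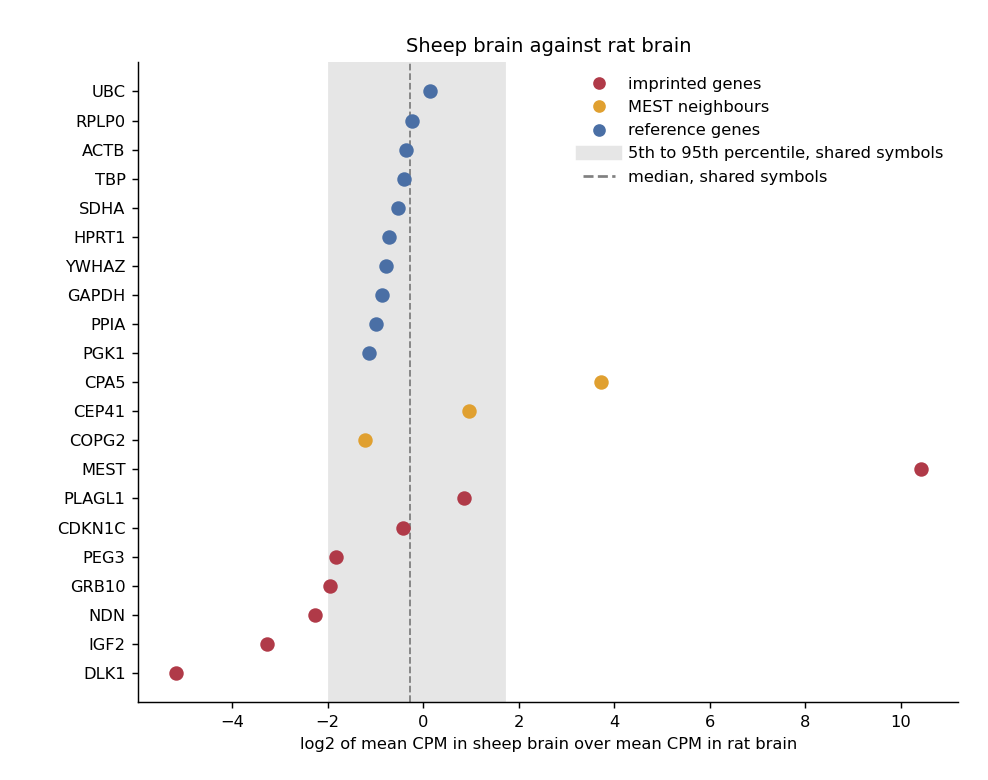
Log2 ratio of mean plain CPM, sheep brain over rat brain, for the 8 members in both tables, the MEST neighbours COPG2, CEP41 and CPA5 and 10 reference genes; the band is the 5th to 95th percentile (-1.98 to 1.71) and the dashed line the median (-0.28) of 12022 shared symbols. MEST stands at 10.42 and CPA5 at 3.73, above the band, while NDN, IGF2 and DLK1 stand below it at -2.25, -3.27 and -5.18, and PEG3 and GRB10 lie just inside it at -1.83 and -1.94. The band comes from symbols at 1 CPM or more, while CPA5 in rat (0.0967) and DLK1 in sheep (0.343) averaged less.

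Each table held 1 entry whose symbol begins with MEST, so the counts were not split over several such entries. Across the 50 sheep brain libraries, MEST in plain CPM had a Pearson correlation of 0.086 with the share of 4 placeholder entries that behave like ribosomal RNA, -0.17 with the mitochondrial share and -0.27 with the library total. These are descriptions over libraries that share animals. Whether reads from other loci, repeats or a misplaced gene model add to the sheep MEST entry was not tested, because no sheep genome, gene model or read alignment was used here.

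MEST varied between libraries of the same region. Its within-region SD on the log2 scale was 0.464, larger than for 82.8% of 1146 sheep genes with at least 100 CPM, whose median SD was 0.314. PEG3, with 0.438, exceeded 79.7% of them. The genes whose levels ran closest to MEST over the 50 sheep brain libraries, out of 8823 named genes at 10 CPM or more, were BEX3 (r = 0.80), SERP2 (0.76), HDGFL2, TIMM22 and ARL3 (0.75 each). Within regions the values were 0.82 for BEX3 and SERP2, 0.63 for HDGFL2, 0.75 for TIMM22 and 0.69 for ARL3. BEX3 is a small brain-expressed protein, SERP2 a protein of the endoplasmic reticulum and ARL3 a small GTPase of cilia. Among the members, NDN was closest to MEST with r = 0.60 (0.53 within regions), followed by PEG3 with 0.45 (0.31 within regions), and GRB10 ran in the opposite direction with -0.44. COPG2 and CEP41 both had -0.13. The MEST correlation with a list of neuron markers, 6 of 7 being in the sheep table, was 0.20, and 0.44 within regions. In rat brain, genes among the closest of 9900 were Mgat5 (0.97), Opcml, Sez6l and Grin2a (0.96 each), and none of these was among the genes named in sheep. Libraries from 1 animal, and depth, are shared between the points of all these correlations.

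Across the 10 sheep regions, 6 of 8 members were called different: MEST, PEG3, DLK1, CDKN1C, GRB10 and PLAGL1. The call needed a Benjamini-Hochberg adjusted p below 0.05 in the edgeR quasi-likelihood F test and a range between the highest and lowest region of at least 1 on the log2 scale. With this rule 52.4% of 21147 genes were called, so a call was common, and with 8 members nothing particular to them is read from the count. The median range was 1.53 for the members and 1.26 for all genes tested. Of 80 pairs of a member and a region, each region being set against the mean of the other 9, 5 were called, against 7.63% of all 211470 pairs of a gene and a region. All 5 lay in basal ganglia, cerebellum or pons, where 10.3%, 28.8% and 18.7% of all genes were called in either direction. In the remaining regions no member was called, where the share of all genes called was 2.24% in entorhinal, 2.77% in frontal, 1.64% in motor, 2.66% in posterior parietal, 2.46% in prefrontal and 2.12% in visual cortex and 4.62% in hippocampus. In such bulk tissue, fewer cells of a type and less RNA per cell cannot be told apart.

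**Figure D3:**
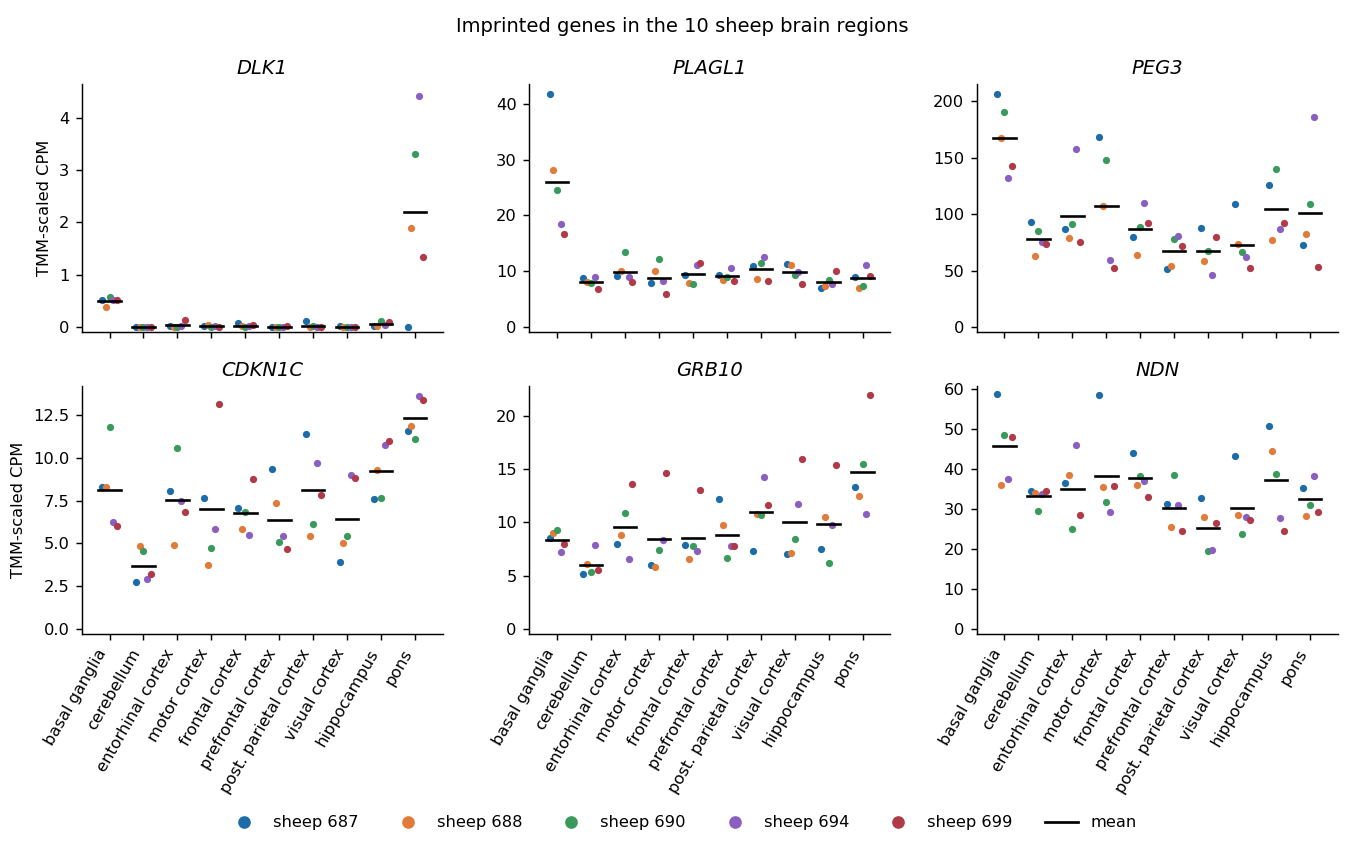
DLK1, PLAGL1, PEG3, CDKN1C, GRB10 and NDN in the 10 sheep brain regions, in TMM-scaled CPM; points are libraries coloured by sheep and bars are region means. PLAGL1 and PEG3 are highest in basal ganglia (means 25.9 and 168 CPM), DLK1 and CDKN1C in pons, and CDKN1C and GRB10 lowest in cerebellum (3.66 and 6.01 CPM).

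MEST was highest in basal ganglia, at 46761, 23226, 26582, 29044 and 34071 CPM (mean 31937 ± 9182, SD, n = 5). Cerebellum followed at 23511 ± 6106, then entorhinal cortex at 22144 ± 7242, motor cortex at 21573 ± 5843 and frontal cortex at 21282 ± 4355. Prefrontal, posterior parietal and visual cortex, hippocampus and pons lay between 15669 and 17465 CPM. No step between neighbours in this order exceeded the larger of their SDs. The joint range was 1.02 (edgeR adjusted p = 0.0159), and without sheep 687 it was 0.93 with an edgeR adjusted p of 0.077, so the call rested on that animal. Basal ganglia exceeded the mean of the other 9 regions by 0.78 ± 0.20 (SE) on the log2 scale (edgeR adjusted p = 0.0020), which is under the fold needed for a call. In pons the values were 16148, 10997, 20064, 25502 and 5632 CPM, and the last, of sheep 699, was the lowest of the 50 brain libraries.

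PLAGL1, a zinc-finger regulator of growth, was higher in basal ganglia than in any other region. In basal ganglia it stood at 41.6, 28.0, 24.6, 18.5 and 16.6 CPM, and the other 45 brain libraries held 5.96 to 13.5 CPM. The groups thus did not overlap with TMM scaling, and the means of the other 9 regions lay between 8.07 and 10.3 CPM. In plain CPM they did overlap, with a lowest basal ganglia library of 15.4 and a highest entorhinal library of 17.0. The share of all genes without overlap between basal ganglia and the other regions is not given here. The log2 difference was 1.52 ± 0.12 (SE, edgeR adjusted p = 3.05e-14), where 5.54% of genes were called higher in basal ganglia. Basal ganglia are the deep forebrain nuclei that hold the striatum.

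PEG3 was also highest there, at 207, 168, 191, 132 and 143 CPM (mean 168 ± 31.4, SD, n = 5), and lowest in prefrontal (67.4 ± 13.7) and posterior parietal cortex (67.8). The basal ganglia mean exceeded that of the next region by more than either SD. Its difference from the other 9 regions was 0.99 ± 0.18 (SE, edgeR adjusted p = 3.38e-05), just under the fold for a call, and 1.10 without sheep 694. The genes closest to PEG3 over the 50 libraries were RIPOR2 (0.80), EFNB3 (0.77) and PDYN (0.73), the last of which encodes the precursor of dynorphin peptides.

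NDN ranged from 45.6 ± 9.26 CPM in basal ganglia to 25.3 ± 5.70 in posterior parietal cortex (SD, n = 5 each). Its joint range of 0.86 had an edgeR adjusted p of 0.0073 and was not called for lack of fold. In basal ganglia it lay 0.48 above the other regions (edgeR adjusted p = 0.0045), and in posterior parietal cortex 0.47 below (log2 difference -0.47, edgeR adjusted p = 0.029). For NDN and IGF2, as for MEST, no step between neighbouring regions exceeded both SDs, and for PEG3, DLK1, GRB10 and PLAGL1 1 of 9 steps did, and for CDKN1C 2.

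DLK1 was close to absent from most sheep brain regions. Pons held 0, 124, 216, 327 and 90 counts, and basal ganglia held 27, 25, 31, 30 and 25. The other 40 brain libraries held at most 10 counts each, and 21 of them held 0. Pooled over sheep, DLK1 reached 2.75 plain CPM in pons, 0.509 in basal ganglia and 0.0751 in hippocampus, and no count was seen in cerebellum. Pons was 5.41-fold above basal ganglia (95% counting interval 4.51 to 6.54) and at least 262-fold above cerebellum, taken against a floor of 3 counts over the group. Basal ganglia was at least 48.4-fold above cerebellum. The intervals cover counting error only and not the spread between animals.

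The pons of sheep 687, with 0 DLK1 counts, allowed up to 0.0602 plain CPM, while the other 4 animals had 90 to 327 counts. Basal ganglia values were much closer together, at 0.502 ± 0.068 CPM (SD, n = 5). In the fit, DLK1 was called higher in pons (log2 difference 6.78, edgeR adjusted p = 2.07e-15) and in basal ganglia (4.40, edgeR adjusted p = 7.93e-09), where 9.66% and 5.54% of genes were called higher. In cerebellum it was called lower (-4.59, edgeR adjusted p = 0.0084), where 19.5% of genes were called lower, and this call was lost without sheep 687 or 699. These fitted differences depend on the prior count, since the regions of comparison are near 0. DLK1 ran closest to VAT1 (0.75), TMEM255A (0.72) and LGALS1 (0.70) over the 50 libraries.

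CDKN1C and GRB10 had the same regions at the ends of their order, with pons at the top and cerebellum at the bottom. CDKN1C stood at 11.6, 11.9, 11.1, 13.6 and 13.4 CPM in pons and at 2.76, 4.85, 4.56, 2.92 and 3.23 in cerebellum, and these groups did not overlap. The share of all genes without overlap between pons and cerebellum is not given here. In cerebellum it lay below the mean of the other 9 regions by -1.12 ± 0.22 on the log2 scale (SE, edgeR adjusted p = 3.28e-05), a call. In pons it lay 0.88 above (edgeR adjusted p = 0.00012), under the fold for a call. GRB10 stood at 13.3, 12.4, 15.4, 10.8 and 21.9 CPM in pons and at 5.18, 6.13, 5.31, 7.92 and 5.52 in cerebellum. Its differences were 0.77 in pons (edgeR adjusted p = 0.00040) and -0.73 in cerebellum (edgeR adjusted p = 0.0024), neither of them a call. In the other 8 regions CDKN1C averaged 6.39 to 9.26 CPM and GRB10 8.39 to 10.9 CPM. Beside these values, the neuron list (6 of 7 genes in the sheep table) was lowest in pons. Over the 50 libraries it had a correlation of -0.68 with CDKN1C and -0.61 with GRB10 (-0.52 and -0.57 within regions). The oligodendrocyte list had 0.62 and 0.53 (0.36 and 0.35 within regions). The microglia list, lowest in cerebellum, had 0.59 and 0.51 (0.44 and 0.34 within regions), and the endothelial list 0.27 and 0.51. The part of cell composition in the regional order was not tested.

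IGF2 was not called between regions. Its joint range was 1.99 on the log2 scale with an edgeR adjusted p of 0.549, and libraries of the same region differed widely. Over the 50 brain libraries it ran from 2.22 to 103 CPM (mean 19.1 ± 20.9, SD). The 3 highest were posterior parietal cortex of sheep 694 (103 CPM), frontal cortex of sheep 699 (77.7) and hippocampus of sheep 694 (65.1). In posterior parietal cortex the other 4 sheep held 3.54 to 14.9 CPM, and in frontal cortex 2.78 to 11.0.

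IGF2 moved with fibroblast genes instead. In the membranes around the brain, the choroid plexus and blood vessels, IGF2 is known to be made in the adult, and there it is expressed from both copies. A 7-gene list for leptomeningeal and perivascular fibroblasts (all 7 in the table and none at 0 in the group) summed to between 30.1 and 484 CPM per sheep brain library. Its score, the mean of log2(CPM + 1), had a correlation of 0.90 with IGF2 over the 50 libraries and 0.89 within regions. The choroid plexus list had 0.55 (0.67 within regions) and the endothelial list 0.56 (0.61 within regions). A list for mural cells of vessels had 0.55 (0.71 within regions) and the neuron list -0.21 (-0.35 within regions). Of the choroid plexus and neuron lists, 6 of 7 genes each were in the sheep table. The 3 genes closest to IGF2 of 8823 were AEBP1 (0.90), COL1A1 (0.88) and COL1A2 (0.85), all genes of the extracellular matrix, and the last 2 are members of the fibroblast list. How much membrane each dissection held was not tested.

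**Figure D4:**
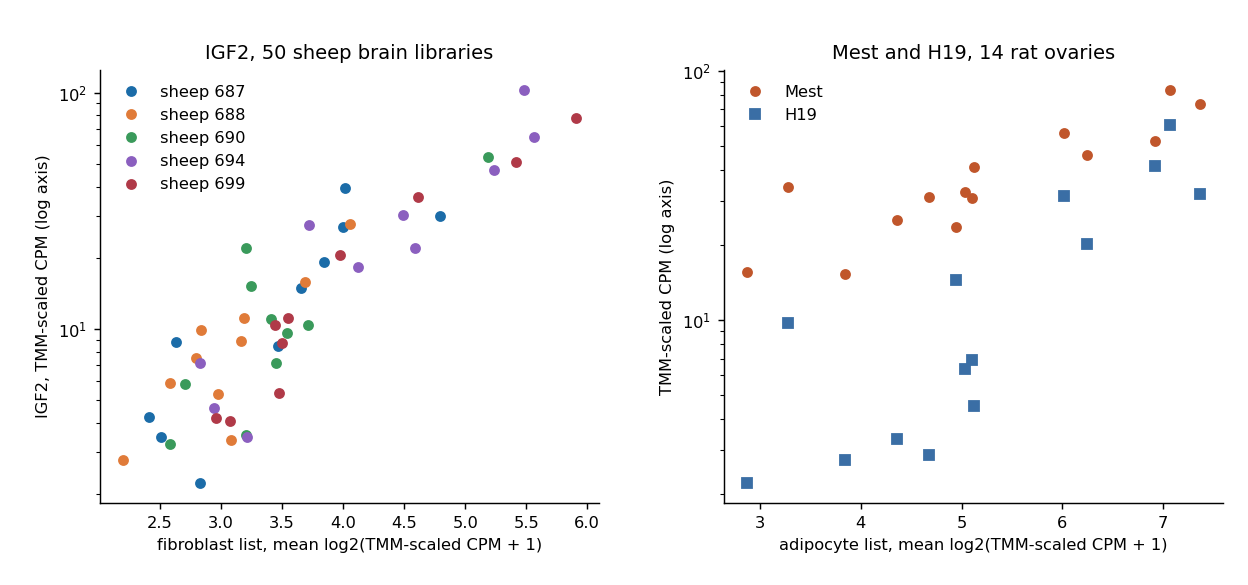
Left, IGF2 in TMM-scaled CPM against the fibroblast list score (mean of log2(CPM + 1)) in 50 sheep brain libraries; right, Mest and H19 in CPM against the adipocyte list score in 14 rat ovaries. IGF2 rises with the fibroblast score (r = 0.90), and Mest and H19 rise with the adipocyte score (r = 0.88 and 0.84).

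The same relation was seen in whole rat brain. Igf2 and the fibroblast list had a Pearson r of 0.764 and a Spearman rho of 0.807 over 29 libraries (permutation p = 1e-05 for each, the smallest that 100000 permutations can give, adjusted p = 3.5e-05 over 14 relations). The r was 0.700 without the 2 libraries farthest from the median score, 0.755 in males and 0.730 in females. Cdkn1c and the fibroblast list had r = 0.801 and rho = 0.846 (permutation adjusted p = 3.5e-05 for each), and 0.763 without the 2 farthest libraries. The choroid plexus list and Igf2 had r = 0.425 and rho = 0.280, with permutation adjusted p of 0.0245 and 0.153, and r = 0.267 without the 2 farthest libraries, so this relation rested on those libraries. Igf2 and Cdkn1c, a pair chosen after their values were seen, ran together with r = 0.908. This pair and others chosen in that way were among the 14 relations, which can lower the adjusted p-values of the rest.

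Other imprinted genes, from a list of 33 of which 30 were tested in sheep, were read beside the members. The joint test over regions called 19 of these 30, and 52.4% of all genes tested. The median range was 1.49 for this list and 1.26 for all genes. In basal ganglia 7 were called higher and 2 lower (10.3% of all genes were called in either direction). ZDBF2 had the largest difference there (5.35 on the log2 scale), followed by KLF14 (3.33), INPP5F (2.03), RTL1 (1.72) and DIRAS3, while PHLDA2 was lower (-2.24). In cerebellum 1 was higher and 8 were lower (28.8% of all genes were called), led by DIO3 (-3.34), ASB4 (-2.87) and MKRN3 (-2.39), and RASGRF1 was higher (1.40). In pons 5 were higher and 1 was lower (18.7% of all genes were called). These were RTL1 (1.69), MKRN3 (1.59), CALCR (1.27), ASB4 (1.25) and SGCE (1.19), with RASGRF1 lower (-1.71). RTL1 shares the imprinted domain of DLK1, and both were higher in pons and in basal ganglia. This did not hold for the whole domain. GTL2, a noncoding RNA of that domain (see Other observations), had its lowest region mean in pons (1524 CPM) and averaged 1883 CPM in basal ganglia. In entorhinal and motor cortex 1 each was called (PHLDA2, 1.65, and DIO3, 2.13), and none in frontal, posterior parietal, prefrontal and visual cortex or hippocampus.

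The 5 sheep sperm libraries were compared with the average over the 10 brain regions of the same animals. PEG3, GRB10 and NDN were lower in sperm under every scaling tried. PEG3 stood at 0.353, 1.22, 0.803, 1.25 and 0.358 plain CPM in sperm against 112 ± 48.5 in brain (SD, n = 50), a fitted log2 difference of -4.70 ± 0.31 (SE, edgeR adjusted p = 2.64e-19). GRB10 stood at 0.184, 0.366, 0.438, 0.305 and 0 plain CPM against 11.2 ± 4.08, with -3.04 ± 0.34 (edgeR adjusted p = 1.46e-11). NDN rested on 1 count in the 5 sperm libraries against 114851 in brain, a ratio of plain CPM of 8262 with a 95% counting interval of 1483 to 326317. Its fitted log2 difference with TMM factors, which raise the sheep sperm values, was -10.33 ± 0.41 (SE, edgeR adjusted p = 1.03e-28), and this value depends on the prior count. No sperm library of these 3 genes reached the lowest brain library. The share of all genes without overlap between sheep sperm and brain is not given here.

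For the remaining members the direction depended on scaling. Leaving MEST aside, the edgeR test with TMM factors called all 7 members, 4 higher and 3 lower, where 33.1% of 21859 genes were called higher and 41.1% lower. The median log2 difference of these 7 was 1.19, against -0.42 for all genes tested. On plain totals, however, all 8 members averaged lower in sperm, because TMM factors raise the sheep sperm values. PLAGL1 stood at 0, 43.8, 7.01, 1.66 and 1.08 plain CPM in sperm (12.5 in brain), and its call of 2.11 (edgeR adjusted p = 1.54e-07) fell to -0.01 without sheep 688 (edgeR adjusted p = 0.99). CDKN1C stood at 3.48, 0.854, 1.53, 2.91 and 6.05 plain CPM (8.87 in brain), and its call of 1.19 (edgeR adjusted p = 1.20e-05) fell under the fold without sheep 687 (0.86) or 699 (0.84).

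IGF2 and DLK1 were no firmer. IGF2 stood at 2.96, 4.70, 23.2, 16.5 and 3.39 plain CPM in sperm, against 23.1 in brain, and its call of 1.30 (edgeR adjusted p = 0.033) was lost without sheep 690 (0.66, edgeR adjusted p = 0.36). DLK1 rested on 6 counts in sperm, 5 of them in sheep 690, and its call of 2.49 (edgeR adjusted p = 0.030) turned to -0.32 without that animal. Beside these values, the 4 placeholder entries that behave like ribosomal RNA took between 22.4% (sheep 688) and 85.2% (sheep 687) of the sperm counts. The summed neutrophil list was given above, and late spermatid markers summed to between 207 and 6914 CPM. Both sums are TMM-scaled, unlike the plain CPM of the members here. The part of white blood cells in the sperm values was not tested.

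MEST stood at 236, 24.7, 33.9, 23.5 and 58.3 plain CPM in sheep sperm, from 15404, 1215, 464, 695 and 2767 counts. Every sperm library was thus below every brain library, and sheep 687 was apart from the other 4. For this lack of overlap, too, the share of all genes is not given here. The ratio of mean plain CPM was -8.30 on the log2 scale, and -5.23 with TMM factors. Without sheep 687 the sperm mean fell from 75.4 to 35.1 plain CPM, and the ratio was -9.35, or -6.93 with TMM factors. Of all genes tested in sheep sperm, 33.1% were called higher and 41.1% lower, with a median of -0.42. Among the other imprinted genes 5 were called higher and 21 lower of 30 in sheep sperm, with a median of -2.77. MAGEL2 and SGCE had 0 counts in sperm, and RASGRF1 (-9.09), DIRAS3 (-8.93), NAP1L5 (-8.74) and RTL1 (-8.68) were among the largest decreases. SLC38A4, an amino acid transporter, was higher (5.99), as was ZDBF2 (5.07).

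In rats, ovary was set against brain of the same sex. Of the 8 members other than Mest, 4 were lower and 1 was higher in ovary, where 29.2% of 20801 genes were called lower and 27.7% higher. The median log2 difference of these 8 was -0.78, against 0.02 for all genes tested. The 7 neuron markers summed to between 9.68 and 35.9 CPM in ovary and to between 4272 and 5669 CPM in rat brain, and the 7 fibroblast markers to between 3725 and 9782 CPM in ovary and 46.8 and 291 CPM in brain. The part of cell composition in these differences was not tested.

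**Figure D5:**
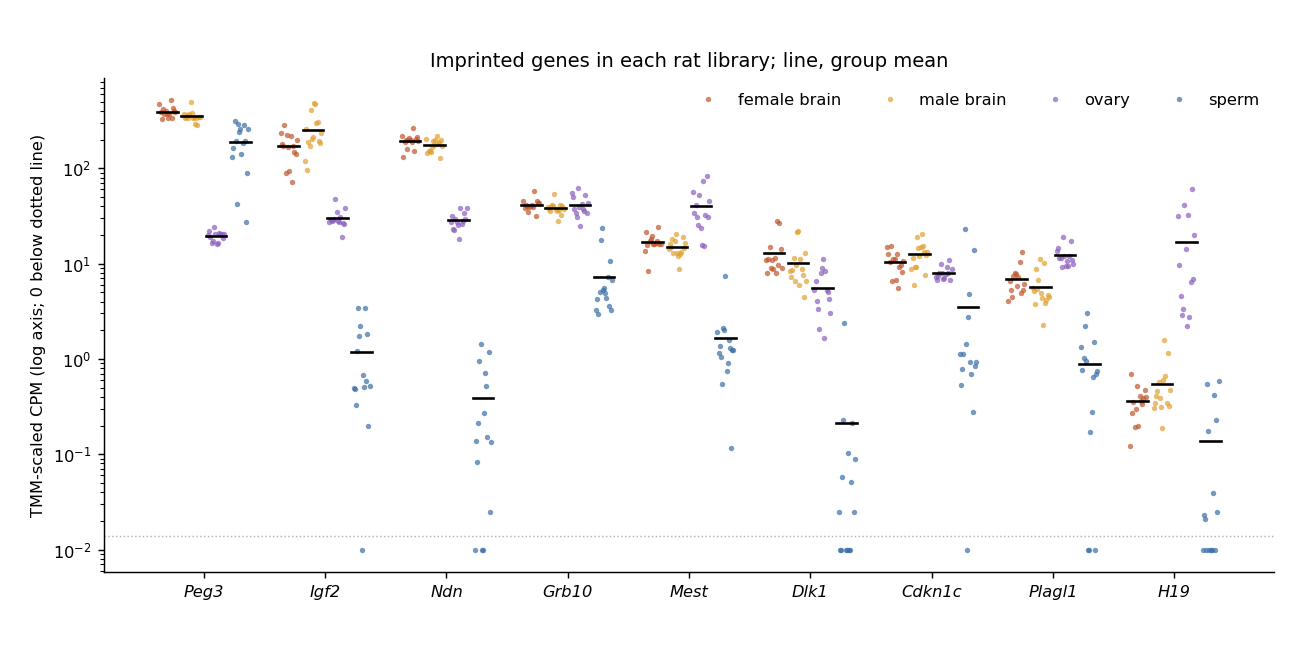
The 9 members in 4 rat groups (female brain, male brain, ovary, sperm), in TMM-scaled CPM on a log axis; each point is a library, and libraries with 0 counts are drawn below the dotted line. Peg3 and Ndn are lower in every ovary than in every brain library, H19 is higher in every ovary, and most members are near 0 in sperm, where Peg3 remains at 27.5 to 315 CPM.

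Peg3 fell most in ovary. It ranged from 16.1 to 24.2 CPM in ovary (median 20.2) and from 328 to 515 in female brain (median 388), with no overlap. The log2 difference was -4.33 ± 0.075 (SE, edgeR adjusted p = 1.62e-29). Ndn averaged 28.5 ± 5.69 CPM in ovary against 194 ± 31.98 in brain (SD, n = 14 each), with -2.76 ± 0.10 (edgeR adjusted p = 3.24e-21). Igf2 averaged 29.97 ± 6.70 against 171 ± 60.2 CPM, with -2.50 ± 0.17 (edgeR adjusted p = 6.97e-15). For both, all 14 ovaries lay below all brains with TMM scaling, while in plain CPM the groups overlapped. The share of all genes without overlap between ovary and brain is not given here. Dlk1 fell less, from 12.9 ± 6.42 to 5.51 ± 2.80 CPM (-1.22 ± 0.26, edgeR adjusted p = 6.09e-05), and the groups overlapped.

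H19 was higher in ovary. It ranged from 2.21 to 60.4 CPM in ovary (median 8.31) and averaged 0.359 ± 0.146 in female brain (SD, n = 14), a log2 difference of 5.51 ± 0.52 (SE, edgeR adjusted p = 2.87e-11). All ovaries lay above all brains. Mest ranged from 15.3 to 83.8 CPM in ovary (median 33.4) and averaged 16.9 ± 3.65 in brain, and 11 of 14 ovaries lay above all brains. No test is given for Mest, since these brain libraries are among those whose low Mest level led to its choice. Plagl1 was higher by 0.82 (edgeR adjusted p = 1.18e-05) and Cdkn1c lower (-0.35, edgeR adjusted p = 0.0092), both under the fold for a call. Grb10 averaged 41.4 ± 10.4 CPM in ovary and 41.5 ± 6.12 in brain, with a log2 difference of 0.01 ± 0.11 (SE).

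Mest and H19 varied together among the ovaries. The ovary with the most Mest (83.8 CPM, rat 27) also held the most H19 (60.4 CPM), and the one with the least H19 (2.21 CPM, rat 23) held 15.6 CPM of Mest. The Pearson correlation was 0.851 and the Spearman rho 0.837 over 14 ovaries. A list of 7 adipocyte markers, added after the values were seen and so given without a p-value, ran with Mest at r = 0.876 and with H19 at r = 0.845. One of its genes, Adipoq, which encodes the fat hormone adiponectin, ranged from 5.95 to 489 CPM between ovaries. The fibroblast list ran with Mest at r = 0.532. The part of attached fat in the ovary values of Mest and H19 was not tested.

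Of all genes tested in rat ovary, 27.7% were called higher and 29.2% lower, with a median of 0.02. Among the other imprinted genes 8 were higher and 15 lower of 31 in rat ovary, with a median of -0.72. Calcr (-8.83), Rasgrf1 (-7.95), Rtl1 (-7.03), Meg3 (-6.87), Zdbf2 (-5.42) and Snurf (-4.82) fell most. Slc38a4 was higher by 3.48.

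In rat sperm 7 of the 8 members other than Mest were called lower than in male brain and none higher, where 31.5% of 20480 genes were called lower and 27.7% higher. The median of these 8 was -2.50, against -0.03 for all genes tested. The 7 neuron markers summed to between 1.15 and 19.2 CPM in sperm and to between 4272 and 5669 in male brain. Between sperm libraries, the sum of 7 late spermatid markers ran from 205 to 22928 CPM, that of 7 fibroblast markers from 4.59 to 773 and that of 5 microglia markers from 31.9 to 691. The part of cell composition in the sperm values was not tested. Ndn fell from 175 ± 26.1 to 0.388 ± 0.470 CPM (SD, n = 15 each), with -8.71 (edgeR adjusted p = 8.53e-15). Igf2 fell from 255 ± 117 to 1.17 ± 1.11 CPM, with -7.71 (edgeR adjusted p = 7.77e-15), and Dlk1 from 10.2 ± 5.15 to 0.212 ± 0.606 CPM, with -5.50 (edgeR adjusted p = 2.12e-07). With TMM scaling, every sperm library of these 3 genes lay below every brain library. In plain CPM this held for Ndn and Igf2, and for 14 of 15 sperm libraries of Dlk1. The share of all genes without overlap between sperm and brain is not given here.

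Mest averaged 1.65 ± 1.68 CPM in rat sperm (lowest 0.115, median 1.24, highest 7.39) against 15.0 ± 3.07 in male brain, given without a test for the same reason as in ovary. Its highest value was in library 17, and without libraries 16 and 17 the mean was 1.18 ± 0.54. Grb10 fell by 2.37 on the log2 scale (edgeR adjusted p = 1.57e-09), Plagl1 by 2.64 (edgeR adjusted p = 6.06e-05) and H19 by 1.86 (edgeR adjusted p = 0.0090), with the limit on H19 counts in sperm and brain given above. Cdkn1c averaged 3.54 ± 6.39 CPM in sperm with a median of 0.924, since library 14 held 22.9 CPM and library 7 held 13.9, and its call was -1.74 ± 0.59 (edgeR adjusted p = 0.0087).

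Peg3 kept the highest share of its brain level. It ranged from 27.5 to 315 CPM in sperm (median 192) and averaged 353 ± 48.3 in male brain, and 13 of 15 sperm libraries lay below all brains. The log2 difference was -0.89 ± 0.22 (SE, edgeR adjusted p = 0.00065), under the fold for a call. It passed in 3 of 7 alternative settings. Among them were DESeq2 (-1.18) and the library number as a block (-1.10, adjusted p = 0.00045 in edgeR), although the numbers are not shown to pair the libraries. The 2 lowest libraries were 7 (27.5 CPM) and 14 (42.4 CPM), the same that held the most Cdkn1c. They also had the highest sums of late spermatid markers (18286 and 22928 CPM) and of microglia markers (478 and 691 CPM). In sheep sperm, by contrast, PEG3 stood at 1.91 to 4.86 CPM, and the difference between the species in this contrast was not tested. Of all genes tested in rat sperm, 27.7% were called higher and 31.5% lower, with a median of -0.03. Among the other imprinted genes 3 were higher and 18 lower of 30 in rat sperm, with a median of -1.51. Magel2 (-10.47), Rasgrf1 (-10.06), Meg3 (-9.85) and Calcr (-8.51) fell most, and Kcnq1, a potassium channel gene, was higher (4.18).

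No member was called between male and female rat brain. Neither edgeR nor DESeq2 called any of the 9, where edgeR called 0.18% of 20570 genes at an adjusted p below 0.05, and 2 members had an unadjusted p below 0.05. The edgeR adjusted p-values of the members ran from 0.323 to 0.675. Igf2 averaged 255 ± 117 CPM in males and 171 ± 60.2 in females (SD, n = 15 and 14), a log2 difference of 0.58 ± 0.21 (SE), and 5 males lay above all females. Peg3 averaged 353 ± 48.3 in males and 394 ± 51.9 in females, with -0.16 ± 0.068. Mest averaged 15.0 ± 3.07 and 16.9 ± 3.65.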

How the data were processed

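Raw counts per gene, 1 column per library, were deposited by the authors, and the values were neither normalized nor pooled. Per the series' design text, reads of 150 bases from both ends (NovaSeq X Plus) were trimmed with Trimmomatic 0.39, aligned with STAR 2.7.5a (rat genome GRCr8, sheep genome ARS-UI_Ramb_v3.0) and then summed per gene by Rsubread 2.20.0. Whether strand was used in counting, and how multiply mapped reads were treated, is not given in the sources used here, so genes with overlapping neighbours or near-identical copies are uncertain.

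The members and the lists were chosen with earlier results of these data known, and the adipocyte list was added later still. All 9 members were named, with the neighbours of MEST, the genes most correlated with MEST, IGF2, DLK1 or PEG3, and up to 6 other imprinted genes per comparison by size of change. Some genes that this rule named are not reported here. Genes were joined between species on the upper-cased symbol, and orthology was not checked.

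The tests on counts were run in R 4.3.3 by edgeR 4.0.16 (quasi-likelihood test, TMM factors, filterByExpr, prior count 0.125), with p-values adjusted by the Benjamini-Hochberg method over all genes of a comparison. A call needed a log2 difference of at least 1 in size and an adjusted p below 0.05, except between sexes, where the adjusted p sufficed. One fit covered the 50 sheep brain libraries and another all 55 sheep libraries, and each rat comparison used its own groups. SEs were computed back from the F statistic. Correlations used log2(CPM + 1), in Python 3.11.15 with scipy 1.17.1, and 100000 permutations where a p is given. The scripts were tested on simulated data.

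Alternatives were DESeq2 1.42.0, RLE and upper quartile factors, no low-count filter, a replicate block, leaving out each sheep, and leaving out rat libraries that stood apart. In sheep, equal numbers mark the same animal (median correlation of deviations 0.164 for 225 same-sheep pairs of regions, -0.038 for 900 pairs of different sheep). In rats the labels give numbers without naming them as animals. No pair of libraries in a group agreed within sampling noise (lowest chi-square per degree of freedom 12.4 over 502 pairs). Depth sets the precision: counting intervals are 95% and exact, and a count of 0 was read as up to 3 counts.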

Additional observations from a re-analysis of the deposited data

Results flagged for a closer look

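In 14 of 87 pairs of a member and a sheep group, 1 animal stood apart from the other 4 by Dixon's 95% limit for 5 samples. That limit assumes normally distributed values, and it was applied to CPM without a log scale, including groups with few counts. The number of pairs is therefore not read against chance. All values here are TMM-scaled CPM. Among the sperm libraries, MEST was 2068 in sheep 687 (77.2 to 311 in the others), PLAGL1 was 174 in sheep 688 (0 to 31.6), and DLK1 was 1.65 in sheep 690 (0 to 0.0809), from 5 counts.

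IGF2 stood apart in 3 regions: at 77.7 in frontal cortex of sheep 699 (2.78 to 11.0 in the others), at 39.5 in motor cortex of sheep 687 (4.07 to 9.85) and at 103 in posterior parietal cortex of sheep 694 (3.54 to 14.9). GRB10 was highest in sheep 699 in frontal cortex, at 13.1 (6.60 to 7.88), and in motor cortex, at 14.6 (5.78 to 8.31). PEG3 was 158 in entorhinal cortex of sheep 694 (75.6 to 91.0).

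NDN was highest in sheep 687 in motor cortex, at 58.4 (29.2 to 35.8), and in visual cortex, at 43.3 (23.6 to 28.5). It was lowest in sheep 690 in cerebellum, at 29.4 (33.8 to 34.4). DLK1 was 0.127 in entorhinal cortex of sheep 699, from 10 counts (0 to 0.0131 in the others), and 0.112 in posterior parietal cortex of sheep 687, from 7 counts (0 to 0.0171).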

How the results depend on the processing

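Counts of called genes kept within 1.5 times of their values except as follows. Without a low-count filter, rat ovary gave 18799 calls (11832 with it) and rat sperm 22067 (12111 with it), from more genes tested. DESeq2 gave 18371 in rat sperm and 153 between the sexes, and leaving out rat brain libraries 1 and 4 gave 74 between the sexes (37 with them). The log2 ratio of MEST between species was 10.72 on totals of shared symbols, and 10.37 to 10.44 without 1 sheep. Leaving out 1 sheep gave 10453 to 10810 calls over regions, 15940 to 16329 in sheep sperm, and 14801 to 15427 over the region contrasts (16131 with all).

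The split of calls moved with scaling. In sheep sperm it was 7239 higher and 8976 lower, and 8907 and 6980 with upper quartile factors, 9913 and 8118 with DESeq2, 10710 and 9465 without a filter. In rat sperm it was 5663 and 6448, and 12974 and 9093 without a filter. In sheep sperm the median over all genes moved by 0.73 with upper quartile factors.

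With a replicate block the counts were 11591 over regions, 16268 in sheep sperm, 11837 in rat ovary and 11925 in rat sperm (4384 higher, 7541 lower). It changed the call of Peg3 in rat sperm (-1.10) and of no other member. Among rat pairs sharing a number, 5 of 14 and 6 of 15 deviated together (r over 0.1), and 3 and 3 correlated best with their own number.

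Signs turned for DLK1 in sheep sperm without sheep 690 (-0.32, and up to 3.22 without another sheep), for PLAGL1 without 688 (-0.0082, and up to 2.45), and for Grb10 in ovary, whose difference is near 0, with DESeq2 (-0.013), RLE factors (-0.021), the replicate block (-0.021) and without brain libraries 1 and 4 (-0.0037). The MEST ratio between sheep sperm and brain ran from -9.35 to -8.08 without 1 sheep, and with TMM factors from -6.93 to -4.97. Of the member results, 416 kept direction and side of the threshold or, untested, moved by less than the spread between sheep, 8 calls were lost and 4 gained. The causes were not tested.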

Other observations

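The sheep table holds no entry named MEG3, the maternally expressed noncoding RNA of the DLK1 domain, but it holds GTL2, an older name of that gene. GTL2 averaged 2007 ± 627 CPM (SD, n = 50) in sheep brain and ranged from 717 to 3985, with region means from 1524 in pons to 2471 in cerebellum. The lowest region mean of GTL2 was thus in pons, where DLK1 was highest, and its highest was in cerebellum, where DLK1 had no count. Pons libraries, however, ranged from 717 to 2363 CPM of GTL2. Posterior parietal cortex averaged 2465 ± 955, close to cerebellum, and basal ganglia, second for DLK1, averaged 1883 ± 424 (SD, n = 5 each). In sheep sperm GTL2 averaged 3.60 ± 2.15 CPM (SD, n = 5), and rat Meg3 averaged 505 ± 115 CPM in brain (SD, n = 29). GTL2 was looked up after the other values were seen, and no test was run on it.

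The entry LOC121816006, which has a placeholder name and was singled out after its values were seen, ran with MEST at r = 0.74 over the 50 sheep brain libraries and at 0.88 within regions. What this entry encodes is not given in the sources used here.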
